A study of Mus musculus with 2 samples.

Results

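The genes described here are 10 genes of the transforming growth factor beta (TGF-beta) pathway in mouse megakaryocytes. They include the ligands Tgfb1, Tgfb2 and Tgfb3, the latency proteins Ltbp1 and Lrrc32, and the receptors Tgfbr1 and Tgfbr2. The others are the signal carriers Smad2 and Smad3 and the inhibitor Smad7. All 10 were chosen by name, without a threshold on their level. They and the gene lists used below were chosen with earlier results of these data known. All 10 were found among the 43346 Ensembl genes of the deposited tables, with 42 annotated transcripts. Megakaryocytes are the large blood cells that shed platelets. The labels call them primary cells, from mouse embryos of day 14.5 with both sexes pooled, and name no treatment, strain or mutation. The study holds 1 group of 2 libraries of polyadenylated RNA, called replicate 1 and replicate 2, so no condition could be compared and each gene is given in both libraries side by side. The labels number the libraries as biological replicates 1 and 2, but both cite 1 biosample and 1 donor. The spread between the libraries may thus be partly technical. No source used here says how the cells were isolated or grown.

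TGF-beta is made as a precursor whose propeptide stays wrapped around the mature dimer and keeps it latent. Latent TGF-beta binds a latent TGF-beta binding protein, which ties it to the matrix, or the membrane protein encoded by Lrrc32 (GARP), which holds it on the surface of platelets and regulatory T cells. Integrins, thrombospondin or proteases free the dimer, which binds the type II receptor. That receptor switches on the type I receptor, which phosphorylates Smad2 and Smad3 so that they enter the nucleus with Smad4, while Smad7 is induced by the signal and blocks it. Megakaryocytes load TGF-beta1 into the alpha granules of platelets, which are a main store of it in blood.

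Replicate 1 held 42099216 expected counts and replicate 2 held 2275922, an 18.5-fold difference in depth. A level is given in TPM, a relative number of transcripts that is scaled by transcript length and by depth. At least 1 TPM was reached by 10053 genes in replicate 1 and by 8775 in replicate 2. All 11 megakaryocyte markers reached it in both libraries, with Gp1bb, a chain of the von Willebrand factor receptor, the highest by mean at 4022 and 7700 TPM. The label was thus matched by its markers, but transcripts of other blood cells were present too. The summed TPM of the 8 erythroid markers was 7083 in replicate 1 and 13896 in replicate 2, most of it from the globin gene Hba-a1 at 4480 and 12715 TPM, values that are uncertain because a near-identical copy of the gene can share its fragments. That of the 11 macrophage markers was 874 in replicate 1 and 229 in replicate 2, with C1qc, a complement chain, the highest and Cd163, Timd4 and Vsig4 at 0 in both. That of the 10 granulocyte markers was 854 in replicate 1 and 149.7 in replicate 2, with the protease gene Prtn3 the highest and Ly6g at 0 in both. Of the 8 stromal markers, 5 were at 0 in both libraries (Col3a1, Pdgfra, Dcn, Lum and Cxcl12). At least 1 TPM in both libraries was reached by 5 of 8 erythroid, 3 of 8 endothelial, 3 of 7 hepatocyte, 1 of 8 stromal and 0 of 10 lymphoid and regulatory T cell markers.

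Of the 10 TGF-beta genes, 7 reached 1 TPM in replicate 1, 6 in replicate 2 and the same 6 in both: Tgfb1, Ltbp1, Lrrc32, Smad2, Smad3 and Smad7. Among all Ensembl genes that share was 18.1%, and among protein coding genes, the class all 10 belong to, it was 34.8%. Ordered by mean TPM, Tgfb1 stood first, followed by Lrrc32, Ltbp1, Smad7, Smad3, Smad2, Tgfbr2, Tgfbr1, Tgfb3 and Tgfb2. Tgfb1 did not overlap with Lrrc32, nor Ltbp1 with Smad7. Tgfb3 was above 0 in both libraries and Tgfb2 was at 0 in both, but in replicate 2 the limit that 0 counts allow for Tgfb2 (0.325 TPM) lies above the 0.17 TPM of Tgfb3. The values of the other neighbours overlapped between the libraries. Read within each library, Lrrc32 stood above Ltbp1, Smad7 above Smad3 and Tgfbr2 above Tgfbr1 in both. The 10 genes together took 0.814% of the counts of replicate 1 and 1.27% of those of replicate 2, nearly all of it from Tgfb1.

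**Figure D1:**
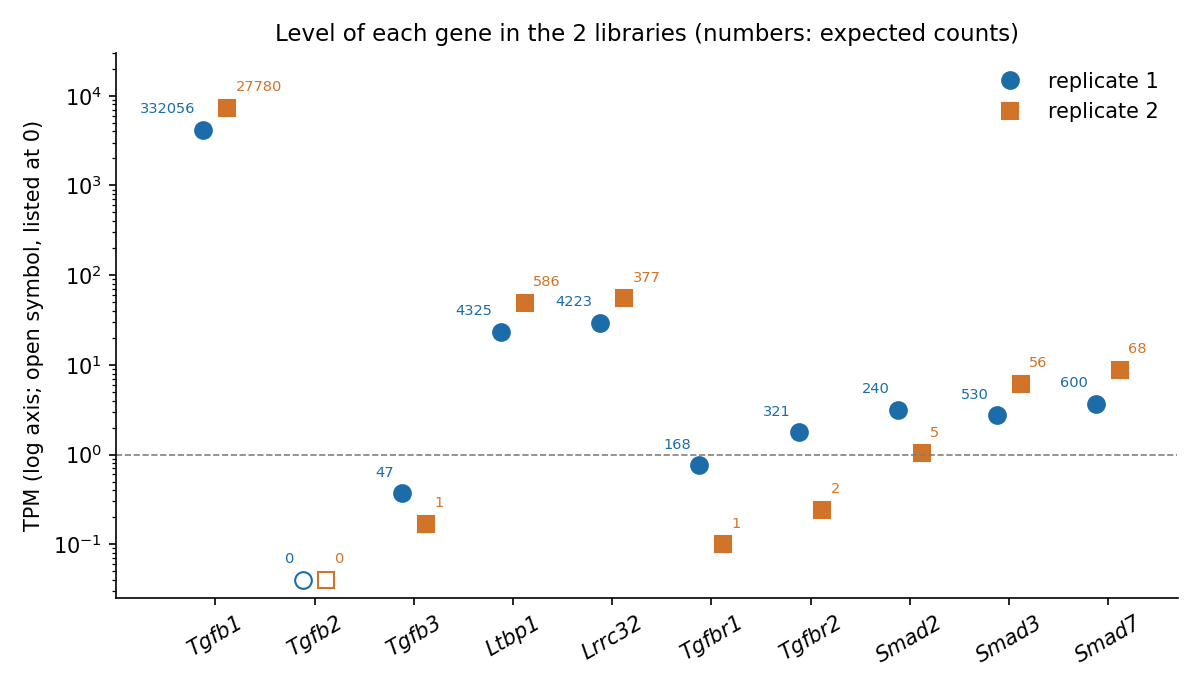
Level of each gene in TPM on a log axis, with a circle for replicate 1, a square for replicate 2 and the expected count beside each point (1 library per point, so no error bar). Tgfb1 lies at 4153 and 7376 TPM, both receptors and Tgfb3 lie under 2 TPM, and Tgfb2 is drawn as open symbols because it was listed at 0.

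Among the ligands, Tgfb1 accounted for almost all transcripts. Tgfb1, the ligand stored in platelets, was measured at 4153 TPM in replicate 1 and 7376 in replicate 2, a mean of 5765 ± 2279 TPM (SD, n = 2). It was the 34th most abundant gene of replicate 1 and the 20th of replicate 2. Its 332056 and 27780 counts were 0.789% (exact 95% interval 0.786% to 0.791%) and 1.22% (1.21% to 1.23%) of the library totals. These intervals cover counting error only. The gene lies on the plus strand of chromosome 7 (GRCm38, 25687002 to 25705077).

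Tgfb3, a ligand best known from palate and lung development, was measured at 0.37 TPM in replicate 1 and 0.17 in replicate 2, from 47 counts and 1 count. Both values are low, and that of replicate 2 rests on a single fragment. In the annotation, exons of 2 genes on the other strand share 163 and 257 bases with Tgfb3, of which the first, Gm37804, had 0 counts in both libraries and the second, Gm48008, was not analysed here. Whether the counting used strand is not given in the sources used here, so fragments of such a pair cannot be told apart.

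Tgfb2, a ligand best known from heart and eye development, was listed at 0 TPM and 0 counts in both libraries. A count of 0 allows up to 3 counts, which is 0.0154 TPM in replicate 1 and 0.325 in replicate 2 for its 5116-base transcript. The deeper library thus sets the tighter limit. The authors' posterior mean TPM for Tgfb2 was 0.31 and 4.91 although no fragment was counted, so posterior means were not read as levels for genes without counts. Of the summed TPM of the 3 ligands, Tgfb1 took 99.991% in replicate 1 and 99.998% in replicate 2. In bulk RNA such as this, fewer cells that make a transcript and less of it per cell cannot be told apart.

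The protein coding genes whose levels were most like those of Tgfb1, by distance on log2(TPM + 1) over the 2 libraries, were Gp1bb, Zyx and Fermt3. Gp1bb lay at a distance of 0.077, with 4022 TPM in replicate 1 and 7700 in replicate 2. Zyx, which encodes the focal adhesion protein zyxin, had 3736 and 7983 TPM. Fermt3, which encodes kindlin-3, an activator of blood cell integrins, had 4842 and 7381 TPM. A distance over 2 libraries describes levels only.

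Both latency proteins were present in both libraries, well below the ligand. Lrrc32, the membrane anchor for latent TGF-beta, was measured at 29.25 TPM in replicate 1 and 55.31 in replicate 2, a mean of 42.3 ± 18.4 TPM (SD, n = 2). It lies on the plus strand of chromosome 7 (GRCm38, 98489283 to 98502181) and has 1 annotated transcript, which held all of its 4223 and 377 counts. Its level ranked 3071st and 1832nd. Regulatory T cells also carry this protein, and of their markers Foxp3, Il2ra and Ctla4 were at 0 in both libraries.

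Ltbp1, which encodes the binding protein that ties latent TGF-beta to the matrix, was measured at 23.41 TPM in replicate 1 and 48.84 in replicate 2, a mean of 36.1 ± 17.98 TPM (SD, n = 2). The values of Ltbp1 and Lrrc32 overlapped. In TPM there were 1.25 and 1.13 transcripts of Lrrc32 per transcript of Ltbp1. The Ltbp1 value of replicate 1 includes 6.44 TPM of the short transcript Ltbp1-207, which was at 0 in replicate 2. In counts Lrrc32 had 4223 and 377 and Ltbp1 had 4325 and 586, so by counts the pair did not keep its ratio. Tgfb1 stood 142 and 133 times above Lrrc32, and 177 and 151 times above Ltbp1, in TPM.

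Ltbp1 spans 386945 bases on the plus strand of chromosome 17 (GRCm38, 75005568 to 75392512) and has an upstream and a downstream start 173.242 kb apart. In human cells these starts are known to give a long and a short protein that differ in how they bind the matrix. Almost all Ltbp1 in both libraries came from the upstream start, which held 92.7% of its TPM in replicate 1 and 96.8% in replicate 2 (mean 94.8% ± 2.85, SD, n = 2). The downstream start held 7.26% and 2.82%. In counts, 4009 and 573 fragments were assigned to transcripts of the upstream start, and 316 and 12.1 to those of the downstream start. Neither library had the downstream start as the main one.

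The 250 bases before each of these 2 Ltbp1 starts are shown because 1 of them was used so much more than the other in both libraries, and come from RefSeq (GRCm38.p6, plus strand) at chr17:75005279-75005528 for the upstream and chr17:75178531-75178780 for the downstream start. Capitals mark matches to the motifs searched on both strands, which were the GC box GGGCGG, the TATA box TATAAA, the GATA core AGATAA, the ETS core CCGGAA, the E-box CACGTG and the SMAD-binding motif CAGAC.
Ltbp1 upstream start: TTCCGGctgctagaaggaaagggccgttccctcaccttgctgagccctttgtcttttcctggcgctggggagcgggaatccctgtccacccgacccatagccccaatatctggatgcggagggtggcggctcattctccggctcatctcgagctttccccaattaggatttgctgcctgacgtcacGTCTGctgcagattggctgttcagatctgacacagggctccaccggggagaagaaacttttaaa
Ltbp1 downstream start: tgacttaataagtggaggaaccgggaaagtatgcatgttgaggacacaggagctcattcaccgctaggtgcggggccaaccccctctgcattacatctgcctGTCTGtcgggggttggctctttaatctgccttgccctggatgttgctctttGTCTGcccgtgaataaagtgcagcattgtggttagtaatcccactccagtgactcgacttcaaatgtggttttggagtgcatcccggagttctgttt
The upstream window held 1 ETS core, found in 12.0% of 32851 promoters of the same length, and 1 SMAD-binding motif, found in 42.2%. The downstream window held 2 SMAD-binding motifs. A match is a description of the letters and does not show binding. The upstream window had a GC content of 56.8% and 12 CpG dinucleotides and the downstream window 50.8% and 7, against medians of 52.4% and 6 over all promoters. The downstream window lies in an intron of the long transcript.

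**Figure D2:**
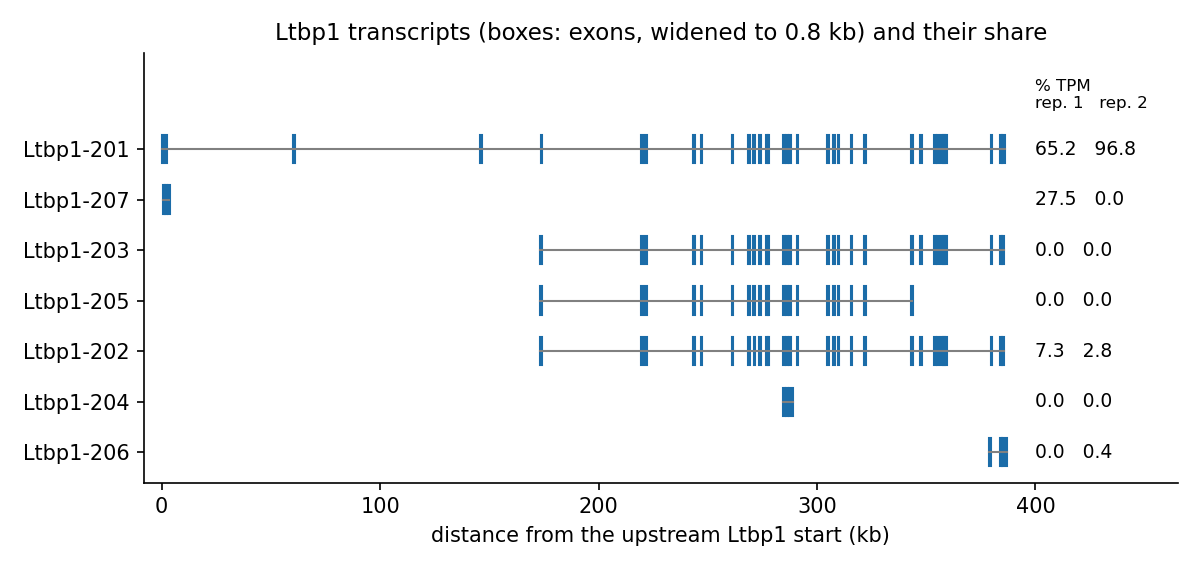
Annotated Ltbp1 transcripts by distance in kb from the upstream start, with boxes for exons, lines for introns and, at the right, each transcript's percent of the summed Ltbp1 TPM in replicate 1 and replicate 2. The long transcript Ltbp1-201 leads in both libraries, and the transcripts that begin 173.242 kb downstream hold 7.26% and 2.82%.

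Ltbp1-201 led in both libraries, with 90.4% and 97.7% of the Ltbp1 counts. In TPM it held 65.2% of the TPM in replicate 1 and 96.8% in replicate 2, from 3912 and 573 counts. A short non-coding transcript, Ltbp1-207, held 27.5% in replicate 1 from 97.0 counts and was at 0 in replicate 2. It is 519 bases long, so it held only 2.24% of the Ltbp1 counts of replicate 1. An equal level would have given it 3.87 counts in replicate 2, and an equal share of the gene's counts 13.1. With this transcript left out, the upstream start held 89.98% and 96.8%.

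The receptors were low in both libraries, and in replicate 2 they were at the limit of detection. Tgfbr2, the type II receptor that binds the ligand first, was measured at 1.77 TPM in replicate 1 and 0.24 in replicate 2, from 321 and 2 counts. Tgfbr1, the type I receptor kinase, was measured at 0.76 TPM in replicate 1 and 0.10 in replicate 2, from 168 counts and 1 count. Both receptors were lower in replicate 2, where each value rests on at most 2 fragments. Their mean levels were 1.01 ± 1.08 TPM for Tgfbr2 and 0.43 ± 0.47 TPM for Tgfbr1 (SD, n = 2), so the SD exceeds the mean for both. In replicate 1 Tgfbr2 stood 2.33 times above Tgfbr1. In replicate 2 the factor was 2.40, but from 2 counts and 1 count. Tgfbr2 lies on the minus strand of chromosome 9 (GRCm38, 116084293 to 116175360) and Tgfbr1 on the plus strand of chromosome 4 (GRCm38, 47353222 to 47414931).

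Tgfbr2 has 2 annotated transcripts in the deposited tables, and it was the only one of the 7 genes with counts and several transcripts whose leading transcript differed between the libraries. Tgfbr2-202 held 75.6% of the TPM in replicate 1, from 243 of 321 counts, and Tgfbr2-201 held 24.4%. In replicate 2 Tgfbr2-201 held 100%, from 2 counts. The authors' posterior SD of the transcript count in replicate 1 was 56.6 for each form, beside counts of 243 and 77.9. The share in replicate 2 cannot be read at this depth.

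In the deposited tables the 2 Tgfbr2 forms, of 4785 and 4710 bases, differ in length by the size of 1 exon, shown here as the base of the split. In GENCODE M21 Tgfbr2-202 has 8092 bases and Tgfbr2-201 has 3476, so there they differ by more than this exon. Fragments from bases added to Tgfbr2-202 in M21 would not have been counted for it. The exon is exon 2 of 8 of Tgfbr2-202, at chr9:116158271-116158345 on the minus strand (GRCm38). Its 75 bases are wholly coding, adding 25 codons. The receptor form with this insert, known as type II-B in human cells, carries it near the start of the part outside the cell. The exon is printed in capitals from the GENCODE M21 transcript, with the last 18 bases of the exon before it and the first 18 of the exon after it in lower case, and then the junction of the form without it.
Tgfbr2-202: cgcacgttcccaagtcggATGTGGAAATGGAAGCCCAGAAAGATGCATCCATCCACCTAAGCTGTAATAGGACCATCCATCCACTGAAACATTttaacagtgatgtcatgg
Tgfbr2-201: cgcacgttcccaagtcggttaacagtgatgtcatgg

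Smad2, Smad3 and Smad7 were expressed at a few TPM. Smad7, the inhibitor that is itself a target of the signal, was measured at 3.69 TPM in replicate 1 and 8.86 in replicate 2, a mean of 6.28 ± 3.66 TPM (SD, n = 2). Smad3, which binds DNA directly as a phosphorylated complex, was measured at 2.73 TPM in replicate 1 and 6.10 in replicate 2, a mean of 4.42 ± 2.38 TPM (SD, n = 2). Smad2, its close relative, was measured at 3.18 TPM in replicate 1 and 1.03 in replicate 2, a mean of 2.11 ± 1.52 TPM (SD, n = 2). Smad3 and Smad7 were thus higher in replicate 2 and Smad2 was higher in replicate 1, and adjacent genes in the order of the means overlapped. Their counts were 600 and 68 for Smad7, 530 and 56 for Smad3, and 240 and 5 for Smad2.

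Relative to each other, Smad7 and Smad3 kept their ratio, with 1.35 transcripts of Smad7 per transcript of Smad3 in replicate 1 and 1.45 in replicate 2. Smad2 did not move with them. Smad3 was 0.858 times Smad2 in replicate 1 and 5.92 times in replicate 2, where Smad2 had 5 counts. In counts Smad3 was above Smad2 in both libraries. The order in TPM in replicate 1 turns on the short Smad2-206, which held 36.3% of the Smad2 TPM from 37.7 counts, and is not settled.

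Smad3-201 and Smad7-201 held 100% of their gene's TPM in both libraries, as did Tgfbr1-201. With the authors' posterior mean TPM these shares were 89.3% and 48.6% for Smad3-201, 87.5% and 60.3% for Smad7-201, and 81.3% and 5.71% for Tgfbr1-201, although the other transcripts had 0 expected counts. Smad2 was divided between transcripts. Smad2-205 held 55.5% in replicate 1 and 95.2% in replicate 2, and the shorter Smad2-206 held 36.3% and 0%. With posterior means Smad2-205 held 48.0% and 18.7%. Smad2-205 is 2857 bases long in the deposited tables and 8089 bases in GENCODE M21, and fragments from the added bases would not have been counted for it. Smad2 lies on the plus strand of chromosome 18 (GRCm38, 76241580 to 76310963), as does Smad7 (75367529 to 75395935), and Smad3 on the minus strand of chromosome 9 (63646767 to 63757994). The main Tgfb1 transcript, Tgfb1-201, held 99.9% and 100%, the rest being 37.4 counts of Tgfb1-202 and 26.3 counts of Tgfb1-203 in replicate 1.

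**Figure D3:**
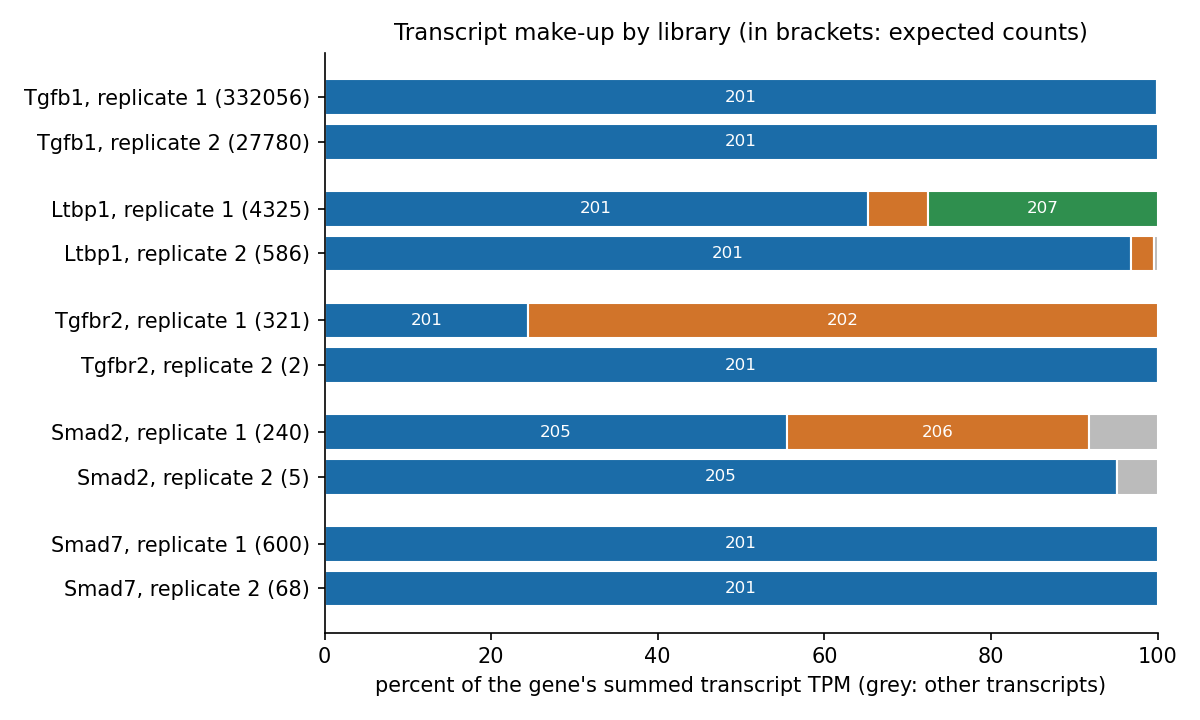
Percent of a gene's summed transcript TPM held by each transcript, 1 bar per library, with the gene's expected count in brackets and grey for transcripts not drawn singly. Tgfb1 and Smad7 are carried by 1 transcript (at least 99.9% of TPM) in both libraries, whereas the make-up of Ltbp1, Tgfbr2 and Smad2 differs, with 2 and 5 counts behind the bars of Tgfbr2 and Smad2 in replicate 2.

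The ligand, its latency proteins, Smad3 and Smad7 were lower in replicate 1 than in replicate 2, and Tgfbr2 was higher. For this comparison the expected counts were scaled with edgeR's TMM factors, and the genes whose mean count reached 100, 7 of the 10, were called where the ratio passed 2-fold. With 1 library on each side the ratio has no replicate check, and its exact 95% interval covers counting error only. Of the 7 genes, 5 were called lower in replicate 1, against 15.7% of all 8194 genes that met the count minimum. In the other direction 1 was called higher in replicate 1, against 33.8% of all genes. With total counts in place of TMM factors, 2 of the 7 were called lower and 2 higher, and over all genes 7.30% were lower and 43.5% higher.

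Ltbp1 had the lowest ratio of replicate 1 to replicate 2, at 0.294 (0.270 to 0.322). Smad7 followed at 0.352 (0.274 to 0.459) and Smad3 at 0.378 (0.286 to 0.507). Lrrc32 had a ratio of 0.447 (0.402 to 0.498) and Tgfb1 one of 0.477 (0.471 to 0.483). None of these intervals reached 1, and that of Smad3 crossed the 2-fold limit. Tgfb1 had the narrowest interval because it had the most counts.

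The receptors and Smad2 lay on the other side. Tgfbr2 had a ratio of 6.40 (1.76 to 53.1), with 2 counts in replicate 2 where an equal level would have given 12.8, and its interval also crossed the 2-fold limit. Tgfbr1, under the count minimum, had a ratio of 6.70 (1.19 to 266), with 1 count where an equal level would have given 6.70. Smad2 had a ratio of 1.91 (0.809 to 5.95), which was not called and whose interval held 1. Tgfb3, also under the minimum, had a ratio of 1.88 (0.321 to 75.6) and could not be told from 1 at this depth.

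The direction of all 9 ratios was kept under 4 other scalings, but several calls were not. The median log2 ratio was taken over genes at the count minimum with at least 1 count in both libraries. Genes at 0 in 1 library were left out of the median but kept in the calls. The median was 0.21 with TMM factors, 0.08 with DESeq2 size factors and 0.65 with total counts. It was 0.36 for the ratio of TPM and 0.30 after the GC trend was removed. Taken in the same way among genes with a mean of at least 50 CPM, the median with TMM factors was -0.37. Tgfb1, Ltbp1 and Lrrc32 are among these genes, with log2 ratios of -1.07, -1.76 and -1.16. Each lay closer to this median than to that of the genes at the count minimum. Relative to the median of the genes at the count minimum, the log2 ratio with TMM factors was -1.28 for Tgfb1, -1.98 for Ltbp1 and -1.37 for Lrrc32. It was -1.62 for Smad3, -1.72 for Smad7 and 2.47 for Tgfbr2. DESeq2 factors and total counts give the same relative values by construction, because they differ from TMM by 1 constant per library. With the GC trend removed the relative value was -0.92 for Lrrc32, -1.17 for Smad7 and -2.08 for Ltbp1. With the ratio of TPM it was -1.42 for Ltbp1. Removing the GC trend brought Lrrc32, whose transcripts have a GC content of 58.2%, to a ratio of 0.650 and Smad7 (59.0%) to 0.547. The ratio of TPM was 0.479 for Ltbp1, whose mean transcript length in the deposited tables was 4847 bases in replicate 1 and 6607 in replicate 2. It was 3.09 for Smad2, with mean lengths of 2061 and 2757 bases. Tgfb1 stayed under 0.5 with TMM (0.477) and DESeq2 factors (0.435) and was above it with the others (0.512 to 0.646).

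Markers of some other blood cells moved with Tgfbr2, while Tgfbr1 was under the count minimum. All 7 macrophage markers and all 6 granulocyte markers that met the count minimum were at least 2-fold higher in replicate 1, as was Tgfbr2, against 33.8% of all genes. The erythroid markers did not, with 1 of 5 called higher and 1, Hba-a1 (ratio 0.317), called lower. Of the other markers at the count minimum, 2 of 3 endothelial, 1 of 2 hepatocyte and 0 of 1 stromal ones were called higher in replicate 1. The share of the receptor transcripts that came from any of these cell types was not tested. Of the 11 megakaryocyte markers, 2 were called higher and 4 lower in replicate 1.

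**Figure D4:**
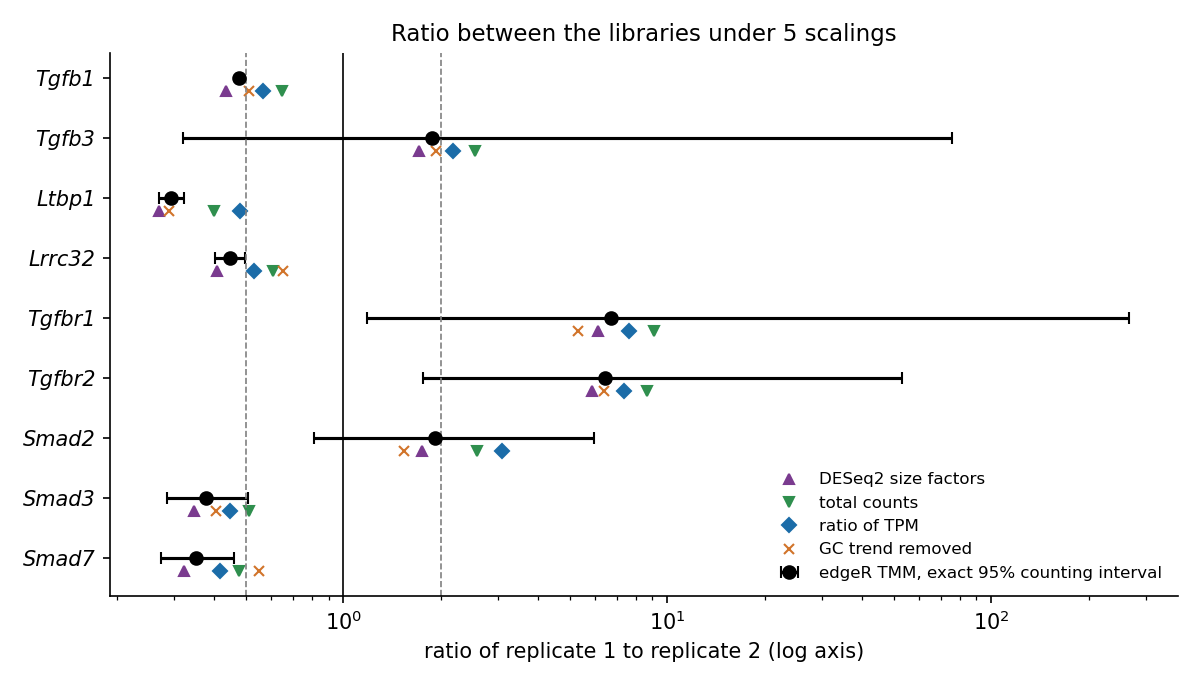
Ratio of replicate 1 to replicate 2 for the 9 genes with counts, on a log axis, with black points and exact 95% counting intervals for TMM scaling and coloured symbols for 4 other scalings, the solid line at 1 and dashed lines at 2-fold. Tgfb1, Ltbp1, Lrrc32, Smad3 and Smad7 lie left of 1 and Tgfb3, Tgfbr1, Tgfbr2 and Smad2 right of it under each scaling, and the intervals of Tgfb3 and Smad2 hold 1.

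The rest of the pathway was read from 7 lists of 93 genes, all of which were found and 42 of which reached 1 TPM in both libraries, where 34.8% of protein coding genes did. The share in single lists lay both above and below that of protein coding genes. Among 18 genes of latency and activation, 9 did so, with a list median of 2.45 TPM in replicate 1 and 0.735 in replicate 2, where the median of protein coding genes was 0.36 and 0 TPM and that of all Ensembl genes 0 in both. Thbs1, which encodes thrombospondin-1, an activator of latent TGF-beta1, led with 248 and 417 TPM. Itgb3, the beta chain of the platelet fibrinogen receptor, had 173 and 127 TPM, and Itgav, the alpha chain that pairs with it to bind the latent complex, had 6.84 and 10.95 TPM. Furin, the protease that cuts the TGF-beta precursor, had 70.0 and 128 TPM. Nrros, a relative of Lrrc32 that anchors latent TGF-beta on macrophages, had 73.8 and 111 TPM. Itgb6 and Plg were at 0 in both libraries.

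Among 12 other receptors and coreceptors, 4 reached 1 TPM in both libraries, with list medians of 0.31 and 0.185 TPM. Eng, which encodes endoglin, a coreceptor known from blood vessels, led with 87.3 TPM in replicate 1 and 230 in replicate 2 and stood far above both Tgfbr1 and Tgfbr2. The activin type I receptor Acvr1b had 7.86 and 6.31 TPM, and Acvrl1, the type I receptor that works with endoglin, had 7.59 and 2.23 TPM. Tgfbr3, which encodes the coreceptor betaglycan, Acvr1c and Bmpr1b were at 0 in both.

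Of the 5 other SMADs, 3 reached 1 TPM in both libraries. Smad6, the inhibitor of the bone morphogenetic protein (BMP) arm, had 18.6 TPM in replicate 1 and 53.8 in replicate 2, above Smad7 in each. Smad4, the partner shared by both arms, had 15.05 and 5.66 TPM, but its counts of 520 and 34 gave a ratio of replicate 1 to replicate 2 of 0.610 with TMM factors, so its direction between the libraries depends on the scale. Smad1, a carrier of the BMP arm, had 1.99 and 5.81 TPM, and Smad9 was at 0 in both. The SMADs of the TGF-beta arm (Smad2 and Smad3) lay within the range of the others. That range is wide, from Smad9 at 0 to Smad6 at 18.6 and 53.8 TPM, so it places them only loosely.

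Of 11 SMAD partners and genes of the TAK1 kinase branch, 7 reached 1 TPM in both libraries, led by the deubiquitinase Usp4 at 109.9 and 65.1 TPM, the coactivator Ep300 at 10.1 and 16.6 TPM and the kinase adaptor Tab1 at 9.69 and 11.4 TPM, with Foxh1 at 0. Of 16 negative regulators, 8 did, led by the SMAD corepressor Ski at 30.5 and 39.9 TPM, Strap at 12.6 and 28.0 TPM and Pmepa1 at 5.09 and 27.5 TPM, with Dcn at 0. Of 19 genes known as targets of the signal in other cells, 8 did, led by the transcription factor gene Junb at 704 and 806 TPM, the cell cycle inhibitor Cdkn1a at 306 and 377 TPM and Myc at 203 and 290 TPM. Acta2 and Snai2 were at 0. These targets answer to many other signals as well, and the list does not separate genes that the signal raises from genes that it lowers. Whether the signal was active was not tested.

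**Figure D5:**
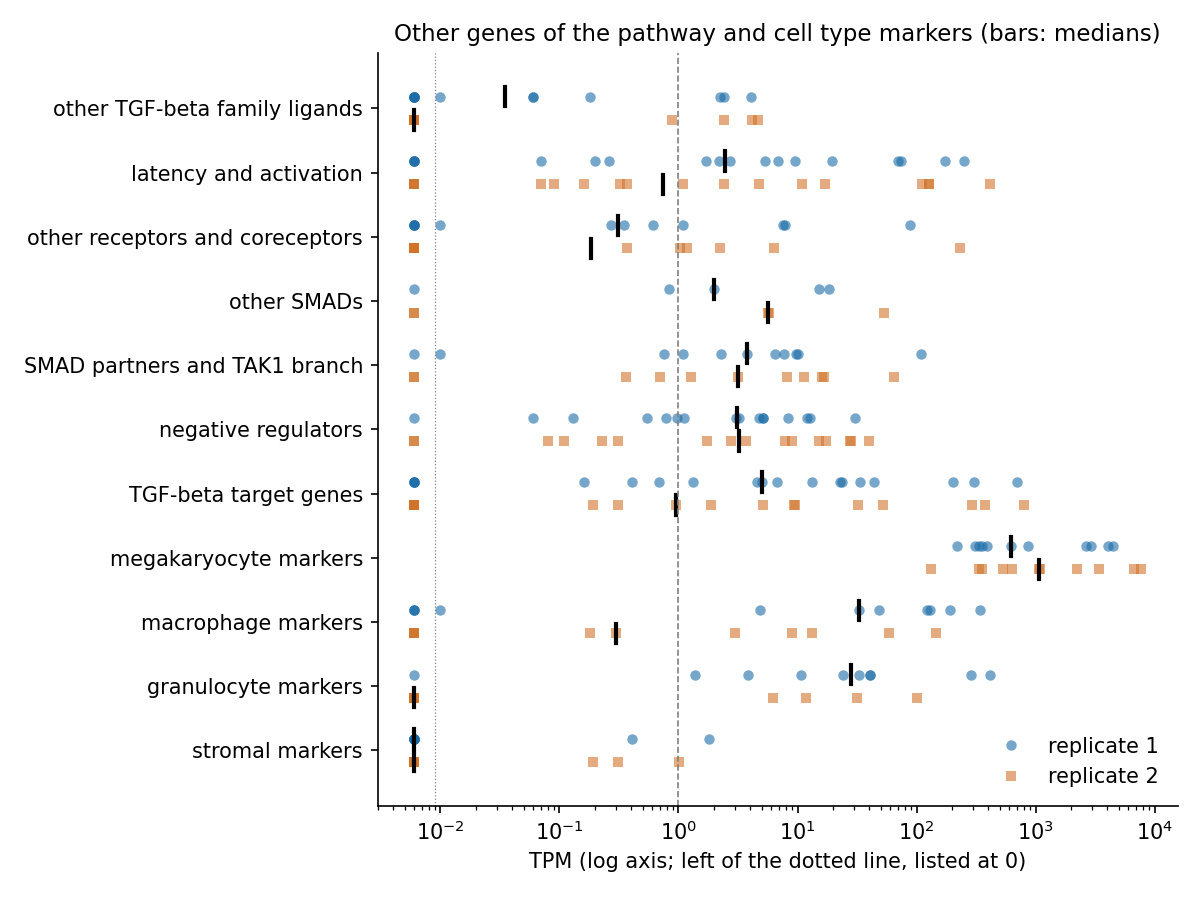
TPM of each gene of the 7 pathway lists and of 4 marker lists on a log axis, with a circle for replicate 1, a square for replicate 2 and a black bar for the list median, genes at 0 being drawn left of the dotted line. Megakaryocyte markers lie above 100 TPM in both libraries, while macrophage and granulocyte markers have higher medians in replicate 1 (32.6 and 28.4 TPM) than in replicate 2 (0.3 and 0 TPM).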

How the data were processed

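RNA of 2 libraries of 1 group was analysed. For each library the authors deposited expected counts, estimated numbers of fragments that need not be whole, for genes and transcripts. The authors scaled TPM and FPKM by transcript length and depth, per the file headers, and FPKM were not used. The deposited isoform percent was recomputed from transcript TPM. The deposited interval bounds, a score of the quantifier, were not used. The assembly is mm10 and the annotation GENCODE M4, per the file lists deposited with the tables, while no source used here names the aligner or quantifier. The numeric and control rows (26248 and 97) held at most 15 counts, a share of 3.56e-05% in replicate 1, and were left out.

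GENCODE M21 (GRCm38) gave symbols, positions and GC content for 98.0% of genes. Promoters were found for 6 of the 10 genes in RefSeq. Counts were rounded for edgeR 4.0.16 (TMM from genes whose mean count reached 10, factors 1.16 and 0.859, tested on simulated data) and DESeq2 1.42.0 in R 4.3.3, which were used for scaling only. The rest was done with pandas 2.3.3, numpy 2.4.6, scipy 1.17.1, statsmodels 0.14.6 and matplotlib 3.10.9 in Python 3.11.15. Intervals are exact (Clopper-Pearson, 95%), and a count of 0 allows 3 counts, or 0.0713 CPM in replicate 1 and 1.32 CPM in replicate 2. No molecular identifiers are named, so fragments may not be independent molecules.

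The genes and lists were chosen with earlier results of these data known. Of 167 list entries, 166 were found, 1 of them (Ctgf) by an older symbol, and Ahsp was not matched. The text names the 10 genes, the 3 highest genes of each pathway list and those at 0 in both libraries, the highest gene of the marker lists used in the text and their genes at 0, transcripts with at least 5% of a gene's TPM, the 3 genes nearest to Tgfb1, and Itgb3, Itgav, Thbs1, Furin, Eng, Smad4, Nrros and Foxp3. Ltbp1-207, Tgfb1-202 and Tgfb1-203, and genes named under the other observations, include some chosen after their values were seen.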

Additional observations from a re-analysis of the deposited data

How the results depend on the processing

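No paired analysis was possible because the libraries form 1 group. All 9 ratios between the libraries kept their direction under each scaling tried. The number of the 10 genes at the level threshold in both libraries, 6 at 1 TPM, was 9 at 0.1 TPM, 3 at 5 TPM, and 6 to 7 when each library was read alone. The mean Tgfb1 share of ligand TPM, 99.994%, was 99.942% with posterior means and 99.991% to 99.998% with each library alone. Of the 7 genes at the count minimum, 5 were called lower in replicate 1 with TMM factors and 2 with total counts. After removal of the GC trend 2 of the 7 were lower, and with the ratio of TPM 3. At a mean of at least 50 CPM all 3 genes that reached it were lower. Over all genes the shares called lower were 15.7%, 7.30%, 13.2%, 13.0% and 26.4% in this order. Those called higher were 1 of 7 with TMM factors, 2 of 7 with total counts and 2 of 7 with the ratio of TPM. With at least 1 count in both libraries 2 of 9 were higher, and at 50 CPM 0 of 3. The shares over all genes called higher were 33.8%, 43.5%, 38.1%, 27.2% and 15.8% in this order. Why the numbers moved was not tested, except that the 50 CPM limit leaves only 3 of the 10 genes. The ratio of TPM and the GC removal for counts over all genes, and Ltbp1 without Ltbp1-207, were chosen after seeing the data. The upstream share of Ltbp1 was 92.7% to 96.8% with each library alone. The number of pathway genes at the threshold in both libraries, 42, was 54 at 0.1 TPM, 26 at 5 TPM and 46 to 51 with each library alone. Of the values for single genes and transcripts under these settings, 75 stayed within the error and 29 moved beyond it. These counts say little, because with 2 libraries a value with 1 left out always stays within the SD. Levels in CPM were also set against TPM, which changes the unit. With posterior means the leading transcript of replicate 2 became Tgfbr1-204 (69.4%), Smad2-204 (26.6%) and Tgfbr2-202 (51.5%) for these 3 genes. Replicate 2 limits both receptors, Tgfb3 and Smad2, which have 1 to 5 counts there.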

Other observations

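Some further genes of the TGF-beta lists, chosen after their values were seen, also differed between the libraries. Over all genes at the count minimum, 33.8% were at least 2-fold higher in replicate 1 and 15.7% lower, with TMM factors. Tgm2, which encodes transglutaminase 2, an enzyme that crosslinks latent TGF-beta binding proteins to the matrix, had 5.37 TPM in replicate 1 and 0.16 in replicate 2, from 729 counts and 1 count. Mmp14, a membrane protease, had 19.4 TPM in replicate 1 and 2.42 in replicate 2, from 1874 and 11 counts. Ltbp3, a relative of Ltbp1, had 2.72 TPM in replicate 1 and 0.32 in replicate 2, from 540 and 3 counts, in the direction opposite to Ltbp1. Ltbp2, another relative, had 1.70 TPM in replicate 1 and 16.94 in replicate 2, from 141 and 17 counts. By counts with TMM factors its ratio of replicate 1 to replicate 2 was 0.331, a smaller difference than in TPM.

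The Id genes, part of the target list above and known also as targets of the BMP arm, were higher in replicate 1 as well. Id1 had 44.2 TPM in replicate 1 and 9.58 in replicate 2, from 1402 and 14 counts. Id2 had 4.61 and 0.96 TPM, from 205 and 2 counts. Id3 had 13.25 TPM in replicate 1 from 418 counts and 0 TPM in replicate 2. Nog, which encodes the BMP antagonist noggin, had 0.13 TPM in replicate 1 from 8 counts and 9.04 TPM in replicate 2 from 26 counts. Among 12 other ligands of the family, 3 reached 1 TPM in both libraries: Bmp2 at 4.08 and 4.11 TPM, Gdf15 at 2.42 and 4.62 TPM and Inha at 2.25 and 2.43 TPM. Bmp4, Bmp6, Bmp7 and Mstn were at 0 in both.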
